A study of Mus musculus with 11 samples.

Results

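The 10 genes described here code for transcription factors of gonadal steroidogenesis, or for proteins that bind to them. They are *Nr5a1* (*Sf1*), *Nr5a2*, *Nr0b1* (*Dax1*), *Nr0b2* (*Shp*), *Gata4*, *Gata6*, *Zfpm2* (*Fog2*), *Nr2f2*, *Wt1*, and *Lhx9*. The genes were chosen by name and not by a cut on their measured values, with earlier results of these data known. Each probe of them on the array was taken, which gave 14 of the 41174 probes. Of these, 9 probes of 6 genes were bright enough to be tested, among 24250 tested probes in all. The arrays measured RNA of MLTCs (MLTC-1), a cell line grown from a Leydig cell tumor of the mouse, 48 hours after transfection with 20 nM of an RNA duplex. The cells of the control group (4 arrays) received a non-targeting RNA, and the other cells received siRNA1 (4 arrays) or siRNA2 (3 arrays), short interfering RNAs against different stretches of the *Mamld1* mRNA. All 3 groups share the line, the medium, and the transfection reagent, and untransfected cells were not analysed here. Per the study's methods, human chorionic gonadotropin (hCG), which acts through the receptor LHCGR, was added after this incubation for the measurement of steroids, and the RNA came from cells harvested at the time of that measurement. The labels do not name hCG, and no group without it can be set apart here. As a tumor line in culture, MLTCs stand for Leydig cells without the other cells of the testis. The labels number the replicates and do not say whether these came from separate cultures, so the p-values measure the spread between these samples, which may be technical.

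As background, NR5A1 binds as a single molecule to a half-site of nuclear receptors in front of most genes of steroid synthesis, and NR5A2 binds to the same kind of site. NR0B1 and NR0B2 lack a DNA-binding domain of the usual kind, bind to other nuclear receptors, and repress NR5A1- or NR5A2-driven transcription. GATA4 and GATA6 bind GATA sites in many of the same genes and act together with NR5A1, ZFPM2 is their cofactor, NR2F2 is an orphan nuclear receptor of the testicular interstitium, and WT1 and LHX9 act on *Nr5a1* in the early gonad. *Mamld1* is known as a target gene of NR5A1, and its product is a coactivator-like protein that does not bind DNA on its own.

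Promoter sequences are shown for 4 genes, of which all but *Nr0b2* hold binding letters of the factors described here. *Nr0b1* is the gene of the 10 with the largest fitted change that passed the test, *Nr0b2* is its close relative that did not pass, and *Lhcgr* and *Amhr2* are target genes that moved with siRNA1. The RefSeq table (build GRCm38.p6) held promoters of 5 of the 10 genes, with 6 starts, and 250 bases before each start were searched on both strands. Capitals mark AGGTCA (the nuclear receptor half-site), AAGGTCA (the same with the added A of NR5A1 sites, which overlaps AGGTCA itself), then AGATAA and the variant TGATAA (letters bound by factors of the GATA family), and the E-box CACGTG (the one bound by USF proteins). The sequences are written 5' to 3' on the strand of the gene, at chrX:86191525-86191774 (plus strand), chr4:133553126-133553375 (plus strand), chr17:88792015-88792264 (minus strand), and chr15:102445117-102445366 (plus strand).
Nr0b1: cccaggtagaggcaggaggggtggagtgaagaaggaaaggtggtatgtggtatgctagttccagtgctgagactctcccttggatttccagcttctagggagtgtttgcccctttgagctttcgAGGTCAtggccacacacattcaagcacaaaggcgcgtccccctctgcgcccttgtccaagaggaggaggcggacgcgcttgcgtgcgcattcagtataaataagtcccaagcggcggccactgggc
Nr0b2: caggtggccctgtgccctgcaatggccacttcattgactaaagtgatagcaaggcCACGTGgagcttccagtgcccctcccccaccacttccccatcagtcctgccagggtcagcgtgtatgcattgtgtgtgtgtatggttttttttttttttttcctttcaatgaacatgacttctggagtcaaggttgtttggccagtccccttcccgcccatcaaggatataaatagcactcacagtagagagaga
Lhcgr: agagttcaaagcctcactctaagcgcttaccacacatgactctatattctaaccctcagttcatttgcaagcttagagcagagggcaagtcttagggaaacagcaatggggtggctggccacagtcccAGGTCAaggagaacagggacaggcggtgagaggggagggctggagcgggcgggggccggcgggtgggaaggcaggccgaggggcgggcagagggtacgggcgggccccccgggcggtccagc
Amhr2: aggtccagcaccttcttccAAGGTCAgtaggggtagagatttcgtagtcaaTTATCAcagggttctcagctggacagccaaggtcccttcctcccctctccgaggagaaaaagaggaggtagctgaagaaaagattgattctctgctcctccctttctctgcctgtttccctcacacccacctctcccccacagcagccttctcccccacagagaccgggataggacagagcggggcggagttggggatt

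AGGTCA lay 126 to 121 bases before the start of *Nr0b1*, and none of the other motifs was found in that window. The *Nr0b2* window held CACGTG, 195 to 190 bases before the start, and no AGGTCA. Of the other members in the table, *Nr5a2* held AGGTCA and both GATA motifs, *Lhx9* held TGATAA, and *Nr2f2* held none of the 5 motifs. Of all 32851 starts in the table, 4607 (14%) held AGGTCA. The share was 4.08% for AAGGTCA, 9.99% for AGATAA, 7.94% for TGATAA, and 6.02% for CACGTG in a window of the same length. These matches describe letters only, and no binding was measured.

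The 75th percentile of the processed signal, to which each array was scaled, was 470 to 582 in the control arrays, 601 to 774 in the siRNA1 arrays, and 488 to 579 in the siRNA2 arrays, so that it did not overlap between control and siRNA1. On each array, 58.6% to 62.6% of the spots were well above background. The arrays lay on 3 slides, of which slide 1 carried control 4, siRNA1 4, and siRNA2 3, slide 2 carried control 3, siRNA1 2, siRNA1 3, and siRNA2 2, and slide 3 carried control 1, control 2, siRNA1 1, and siRNA2 1. All 6 Leydig cell markers (*Lhcgr*, *Insl3*, *Cyp17a1*, *Cyp11a1*, *Hsd3b1*, and *Star*) were well above background on all 11 arrays, and all 6 also stand in the list of target genes below. Of the markers of other cells, 4 of 7 Sertoli cell, 3 of 4 granulosa cell, 2 of 4 adrenal cortex, 3 of 5 germ cell, 1 of 3 peritubular cell, and 0 of 3 macrophage markers were well above background on all arrays. *Sox9*, which defines Sertoli cells, and the macrophage markers *Adgre1* and *Lyz2* were not well above background on any array. The summed signal of the Sertoli cell markers, in multiples of the 75th percentile, was 4.94 to 5.49 in the control arrays, 4.69 to 5.44 with siRNA1, and 6.52 to 7.52 with siRNA2. That of the adrenal cortex markers was 16.0 to 19.2, 13.9 to 15.9, and 15.9 to 18.7, and that of the Leydig cell markers 359 to 470, 328 to 377, and 389 to 467 in the same order. Single bright genes carry such sums. The median signal of *Akr1b7* was 9169, against 3.06 to 46.9 for the other adrenal cortex markers. *Dhh* (1478) and *Gata1* (1062) led the Sertoli cell markers. *Akr1b7*, *Mc2r*, and *Cyp21a1* also stand among the target genes, and *Gata1* among the relatives below. The sums of the other lists overlapped between the control arrays and either siRNA. Their part in the results below was not tested.

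The targeted gene was checked first. Its probe was dim, with a processed signal of 14.3 to 38.1, where the lowest signals well above background were 6.94 to 8.90. Levels are given in percent of control, the control being the geometric mean over its arrays. *Mamld1* stood at 88.0%, 85.2%, 119%, and 112% in the 4 control arrays, at 46.6%, 77.0%, 48.1%, and 44.1% with siRNA1, and at 45.3%, 68.6%, and 65.5% with siRNA2. All siRNA arrays lay below all control arrays, by a log2 difference of -0.93 (SE 0.20, n = 4 and 4, limma adjusted p = 0.00571) for siRNA1 and -0.77 (SE 0.22, n = 3 and 4, adjusted p = 0.0309) for siRNA2. Groups that did not overlap, in either direction, made up 29.1% of all tested probes with siRNA1 and 28.1% with siRNA2. The siRNA2 call was lost without control 3, control 4, siRNA2 1, or siRNA2 3, with values of -0.84 to -0.58. Normexp background correction took the differences to -0.14 and -0.11, where neither passed (limma adjusted p = 0.0767 and 0.243).

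Of the 9 tested probes of the 10 genes, 2 rose and 0 fell with siRNA1, where 27% of all tested probes passed (11.8% higher and 15.2% lower). With siRNA2, 1 rose and 0 fell, where 18.4% of all tested probes passed (7.7% higher and 10.7% lower). Between the siRNAs, 1 was higher with siRNA1 and 0 were lower, where 23.5% of all tested probes passed (11.7% higher and 11.8% lower). With a change of at least 2-fold as well, 1, 0, and 0 of the 9 probes passed, beside 2.99%, 2.25%, and 3.36% of all tested probes. A probe passed at an adjusted p of 0.05 or less, with the adjustment over all 24250 tested probes. The shares of the 10 genes' probes, 22.2%, 11.1%, and 11.1%, lay below those of all tested probes, on counts of 1 or 2 of 9. The median log2 difference over the 9 probes was 0.04 with siRNA1, 0.15 with siRNA2, and -0.11 between the siRNAs, beside -0.05, -0.01, and -0.04 over all tested probes. The probes that passed were those of *Nr0b1* and the brightest of *Gata6*. A bulk array cannot tell a change in the share of cells that express a gene from a change in RNA per cell.

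**Figure D1:**
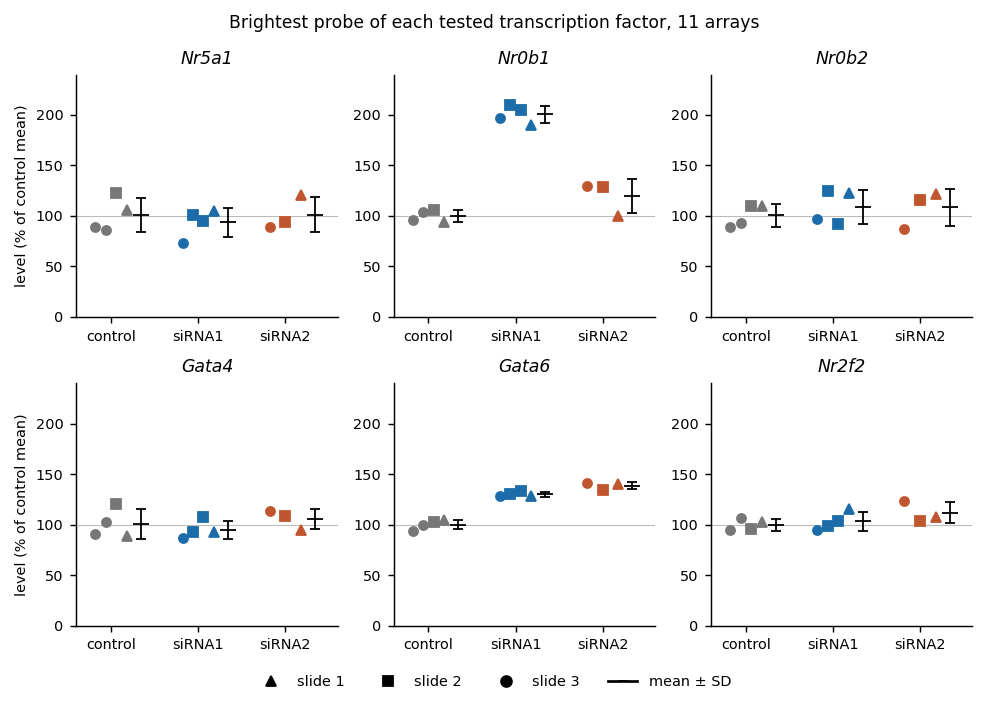
Level of the brightest probe of the 6 tested genes in percent of the control mean (vertical axis, from 0) on the 4 control, 4 siRNA1, and 3 siRNA2 arrays, with the marker shape giving the slide and the black bars the mean and SD of each group. The siRNA1 arrays of *Nr0b1*, at 190.3% to 210.2%, lie above all other arrays, all siRNA arrays of *Gata6* lie above its control arrays, and the groups of the other 4 genes overlap.

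*Nr5a1*, the master regulator of steroidogenic genes, was measured by 1 probe with a processed signal of 1102 to 2010. Its level was 89.3%, 86.1%, 123%, and 106% in the control arrays, 72.7%, 101.3%, 95.3%, and 105% with siRNA1, and 89.3%, 94.3%, and 121% with siRNA2. The 3 groups overlapped. The log2 difference was -0.11 with siRNA1 (SE 0.16, 95% interval -0.45 to 0.23, adjusted p = 0.651), 0.01 with siRNA2 (SE 0.17, interval -0.36 to 0.38, adjusted p = 0.985), and -0.12 between the siRNAs (interval -0.49 to 0.25, adjusted p = 0.668). With siRNA1 the interval reaches a decrease to 0.73-fold and an increase to 1.17-fold, so changes between these bounds are not excluded by the 11 arrays. *Nr5a1* moved with the slides. The 4 arrays of slide 3 stood at 72.7% to 89.3% and the 7 arrays of slides 1 and 2 at 94.3% to 123%, without overlap, which held in that direction for 1.52% of all tested probes (this split was chosen after the values were seen). With the slide as a block, the differences were -0.19 (adjusted p = 0.148) with siRNA1 and -0.06 (adjusted p = 0.752) with siRNA2. *Nr5a2*, the relative of *Nr5a1* that drives steroidogenic genes in the ovary, was not well above background on any array, with a processed signal of 1.85 to 6.85.

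The patterns most like that of *Nr5a1* over the 11 arrays were those of *Zfp646* (Pearson r = 0.957), *Tomm6* (r = 0.952), and *Eri3* (r = 0.951), among 16137 probes of other genes. After subtraction of the group means, r was 0.968, 0.964, and 0.980. These arrays share 3 slides, and the values are a description.

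*Nr0b1* codes for the repressor DAX1, and was the one of the 10 genes that passed the test with siRNA1 and also differed between the siRNAs. Its level was 95.7%, 104%, 106%, and 94.4% in the control arrays, 197%, 210.2%, 205%, and 190.3% with siRNA1, and 129%, 129%, and 100.1% with siRNA2. The siRNA1 arrays lay above all others, 2 siRNA2 arrays lay above the control arrays, and siRNA2 3 lay among them. The mean was 100.1% ± 5.9 (SD, n = 4) in the control arrays, 200.5% ± 8.7 (n = 4) with siRNA1, and 119% ± 17 (n = 3) with siRNA2. With siRNA1 the level was 2.00-fold that of the control (95% interval 1.73 to 2.32, log2 difference 1.00, SE 0.10, limma adjusted p = 3.2e-05, two-sided exact permutation p = 0.0286, the smallest that 4 against 4 arrays allow). Groups that did not overlap made up 29.1% of all tested probes in that comparison (12.7% with siRNA1 above), and *Nr0b1* was the member that passed the 2-fold threshold, by a narrow margin. The log2 difference was below 1 with the slide as a block (0.99), without control 1, control 4, siRNA1 2, or siRNA1 3 (0.98 to 0.99), and with normexp background correction (0.37 and, with extreme backgrounds replaced, 0.49). With siRNA2 the log2 difference was 0.25 (SE 0.10, interval 0.02 to 0.48), and it did not pass (adjusted p = 0.135, exact permutation p = 0.114). It passed with the slide as a block (0.25, adjusted p = 0.0437) and without siRNA2 3 (0.37, adjusted p = 0.0242). The siRNAs differed by 0.76 (SE 0.10, interval 0.53 to 0.99, adjusted p = 0.000389), which is 1.69-fold, and groups that did not overlap made up 31.3% of tested probes there (14.9% with siRNA1 above and 16.4% with siRNA1 below). In order, siRNA1 stood highest, then siRNA2, then control, and the last 2 did not differ beyond their spread by the test.

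The differences of *Nr0b1* within each slide are given as a description. As the siRNA1 and control arrays did not overlap, a positive siRNA1 difference on each slide was fixed in advance. Slide 1 held a single array of each group. The log2 difference between siRNA1 and control was 1.01 on slide 1, 0.97 on slide 2, and 0.98 on slide 3. That between siRNA2 and control was 0.08, 0.28, and 0.37, positive on all 3 slides. The probe was dim, with a processed signal of 44.9 to 59.1 in the control arrays and 112 to 151 with siRNA1, against negative control spots with a median of 1.61 to 2.04. When an offset was added with the normexp background correction, which draws dim probes together, the siRNA1 difference was 0.37 and still passed (adjusted p = 0.000146). Across 23 alternatives it stood between 0.37 and 1.05 and passed in each.

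*Nr0b2*, which codes for SHP, the other repressor of the same kind, was measured by 1 probe with a processed signal of 386 to 659. Its level was 88.7%, 93.4%, 109.5%, and 110.3% in the control arrays, 97.3%, 125%, 92.4%, and 122% with siRNA1, and 87.4%, 116%, and 122% with siRNA2. The groups overlapped throughout. The log2 difference was 0.11 with siRNA1 (SE 0.14, interval -0.20 to 0.43, adjusted p = 0.599), 0.10 with siRNA2 (SE 0.15, interval -0.23 to 0.44, adjusted p = 0.733), and 0.01 between the siRNAs (interval -0.32 to 0.35, adjusted p = 0.965). The interval for siRNA1 ends below the interval of *Nr0b1* for siRNA1, which is 0.79 to 1.22, and the difference between the 2 genes was not tested.

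**Figure D2:**
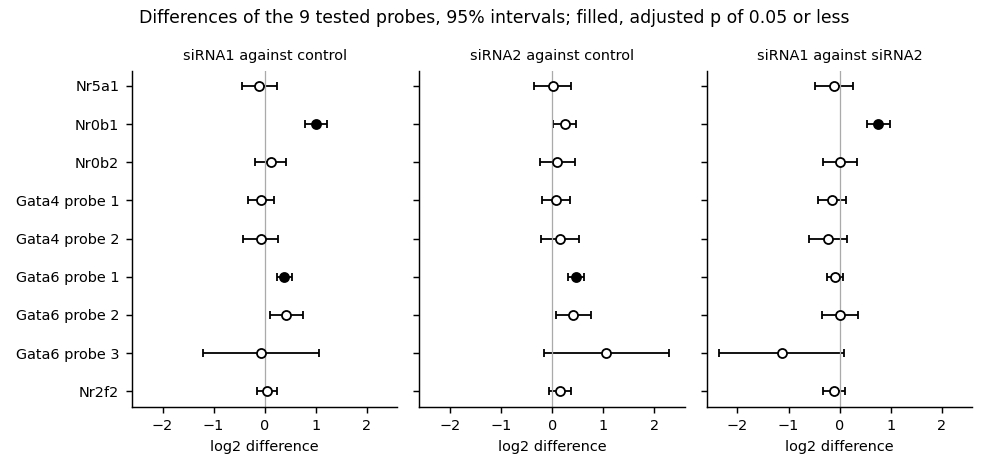
Log2 difference (horizontal axis) with its 95% interval for the 9 tested probes in the 3 comparisons, with filled circles for an adjusted p of 0.05 or less and the probes of *Gata4* and *Gata6* numbered from the brightest. *Nr0b1* at 1.00 and the first *Gata6* probe at 0.38 passed with siRNA1, the latter at 0.47 with siRNA2, and the third *Gata6* probe has intervals several times wider than the others.

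*Gata6* codes for a zinc finger factor that acts on promoters of steroidogenic enzymes, and its brightest probe rose with both siRNAs. Its level was 94.0%, 99.6%, 102%, and 104.5% in the control arrays, 128%, 131%, 133%, and 128.5% with siRNA1, and 141%, 135%, and 140.2% with siRNA2. All 7 siRNA arrays lay above all 4 control arrays, and the siRNA2 arrays lay above the siRNA1 arrays. The mean was 100.1% ± 4.5 (SD, n = 4), 130.1% ± 2.5 (n = 4), and 139% ± 3.3 (n = 3). The log2 difference was 0.38 with siRNA1 (SE 0.07, interval 0.23 to 0.53, 1.30-fold, adjusted p = 0.00176) and 0.47 with siRNA2 (SE 0.07, interval 0.31 to 0.63, 1.39-fold, adjusted p = 0.00106), each with an exact permutation p of 0.0286, the smallest possible. Of all tested probes, 4.08% passed in this direction with both siRNAs, and groups that did not overlap made up 28.1% in the comparison of siRNA2 with control (12.4% with siRNA2 above). The siRNAs differed by -0.09 (SE 0.07, interval -0.25 to 0.07), which did not pass (adjusted p = 0.408). Within the slides, the difference from control was 0.30, 0.37, and 0.40 with siRNA1 and 0.42, 0.40, and 0.54 with siRNA2, for slides 1, 2, and 3.

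The other probes of *Gata6* did not pass. The second, with a processed signal of 119 to 312, stood at 91.9%, 117%, 108%, and 86.1% in the control arrays, at 127%, 153%, 146%, and 114% with siRNA1, and at 116%, 167%, and 124% with siRNA2. All 7 siRNA arrays lay above 3 of the 4 control arrays, and siRNA1 4 and siRNA2 1 lay below control 2. Its log2 differences of 0.42 with siRNA1 (SE 0.15, adjusted p = 0.0557) and 0.42 with siRNA2 (SE 0.16, adjusted p = 0.0974) were of the size seen with the first probe. Both passed with the slide as a block (0.36, adjusted p = 0.0284, and 0.41, adjusted p = 0.0280). With siRNA1 the difference passed in 11 of 23 alternatives, among them those without control 2 (0.50), without siRNA1 4 (0.50), and without siRNA2 2 (0.42).

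The third probe of *Gata6*, with a processed signal of 11.5 to 30.6 on 10 arrays, was near the background limit of 6.94 to 8.90. It stood at 74.5%, 72.1%, 156%, and 119.5% in the control arrays, at 67.9%, 121%, 113%, and 88.8% with siRNA1, and at 99.6%, 678%, and 134% with siRNA2. The array siRNA2 2 alone, with a signal of 133, stood far from the rest. The log2 difference was -0.07 with siRNA1 (SE 0.51, adjusted p = 0.937) and 1.06 with siRNA2 (SE 0.56, interval -0.16 to 2.28, adjusted p = 0.235), and the latter was 0.21 (adjusted p = 0.775) without siRNA2 2. Between the siRNAs the difference was -1.13 (adjusted p = 0.175), and it passed with the slide as a block (-1.33, adjusted p = 0.0199), where it still held the same array.

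**Figure D3:**
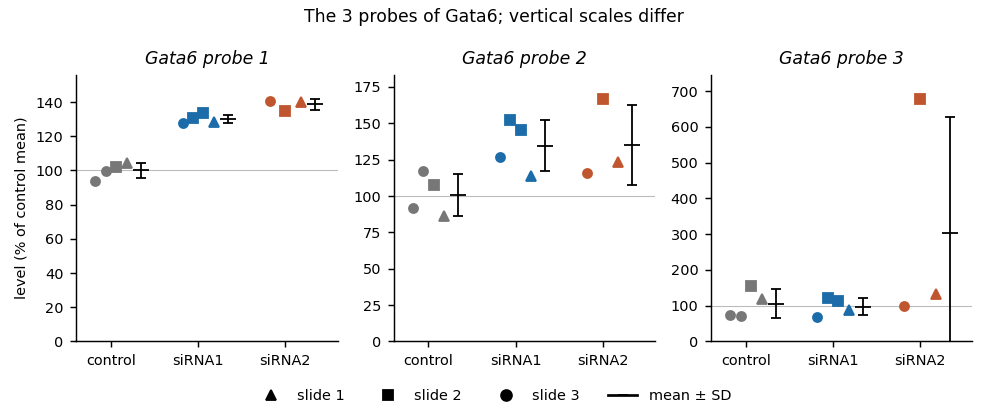
Level of the 3 *Gata6* probes, numbered from the brightest, in percent of the control mean (vertical axes from 0, each with its own scale) on the control, siRNA1, and siRNA2 arrays, with the slide as the marker shape and bars for mean and SD. Probe 1 separates the siRNA arrays from the control arrays, probe 2 does so with overlap, and probe 3 shows siRNA2 2 at 678%.

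The patterns most like that of the first *Gata6* probe over the 11 arrays were those of *Exoc4* (r = 0.985), *Pwp2* (r = 0.982), and *Rasl12* (r = 0.977), among 16135 probes of other genes. After subtraction of the group means, r was 0.482, 0.593, and 0.489, lower than for the genes nearest to *Nr5a1*.

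*Gata4*, the close relative of *Gata6* and the main GATA factor of fetal Leydig and Sertoli cells, was measured by 2 probes, and neither passed. The brighter lies on 10 spots of each array, whose signals varied by 2.67% to 9.39% (coefficient of variation within an array). It stood at 91.1%, 103%, 121%, and 88.4% in the control arrays, at 86.9%, 93.0%, 107.5%, and 92.4% with siRNA1, and at 114%, 108.5%, and 94.8% with siRNA2. The groups overlapped, with log2 differences of -0.08 with siRNA1 (SE 0.12, interval -0.33 to 0.18, adjusted p = 0.658), 0.08 with siRNA2 (SE 0.13, interval -0.20 to 0.35, adjusted p = 0.758), and -0.16 between the siRNAs (adjusted p = 0.413). The other probe, with a processed signal of 196 to 399.9, gave -0.08 (SE 0.15, adjusted p = 0.756), 0.15 (SE 0.17, adjusted p = 0.623), and -0.23 (SE 0.17, adjusted p = 0.365). The brighter probe overlapped between the slides, with 86.9% to 114% on slide 3 and 88.4% to 121% on slides 1 and 2. The dimmer probe moved with the slides like *Nr5a1*, with 77.3% to 96.3% on slide 3 and 100.6% to 128% on slides 1 and 2. Such a split without overlap, with slide 3 lower, held for 1.52% of all tested probes. With the slide as a block, the difference between the siRNAs at this probe was -0.26 and passed (adjusted p = 0.0330), and the brighter probe gave -0.19 (adjusted p = 0.195). The intervals of the brighter *Gata4* probe and of the first *Gata6* probe for siRNA1 do not overlap (-0.33 to 0.18 and 0.23 to 0.53), and the difference between the 2 genes was not tested.

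*Zfpm2*, whose product binds GATA4 and modulates it, was well above background on 2 of 11 arrays, siRNA1 2 with a processed signal of 10.7 and siRNA1 3 with 10.2. On the other 9 arrays the signal was 2.43 to 8.12 and not well above background, so the gene was not tested and no fold change is given.

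*Nr2f2*, which codes for COUP-TFII, was measured by 1 probe with a processed signal of 1028 to 1703. It stood at 94.98%, 107%, 95.3%, and 103% in the control arrays, at 94.95%, 98.8%, 103.5%, and 116% with siRNA1, and at 123%, 104%, and 107% with siRNA2. The groups overlapped, with log2 differences of 0.04 with siRNA1 (SE 0.09, interval -0.16 to 0.24, adjusted p = 0.774), 0.15 with siRNA2 (SE 0.10, interval -0.06 to 0.37, adjusted p = 0.344), and -0.11 between the siRNAs (adjusted p = 0.462). With the exact permutation test, siRNA2 against control gave p = 0.114.

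*Wt1* and *Lhx9*, which code for factors of the early gonad, were not well above background on any of the 11 arrays. *Wt1*, on 10 spots of each array, had a processed signal of 1.60 to 2.00, and the 2 probes of *Lhx9* had 1.69 to 3.55 and 1.78 to 2.24. The negative control spots had medians of 1.61 to 2.04 on the arrays, and both *Lhx9* probes reached higher than these. No level is given for either gene.

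**Figure D4:**
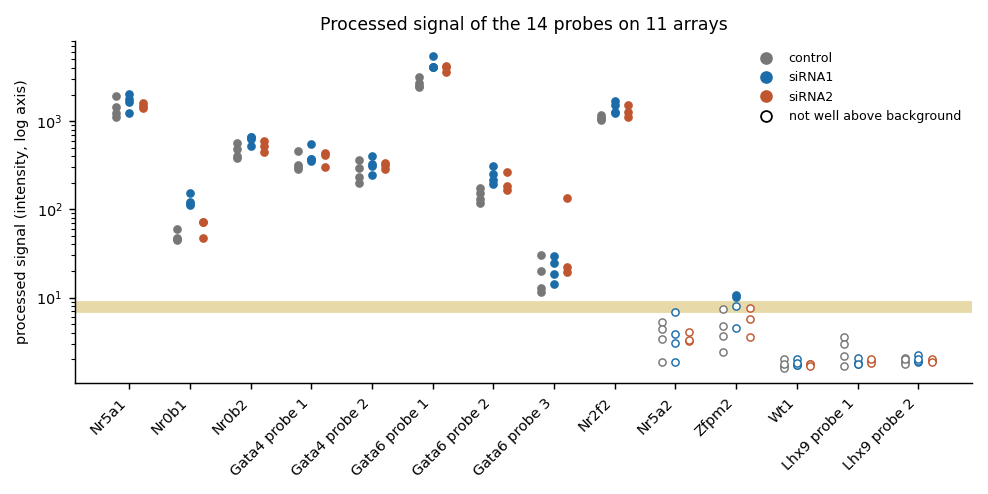
Processed signal (vertical log axis, intensity units) of the 14 probes on the 4 control, 4 siRNA1, and 3 siRNA2 arrays, with open circles where a probe was not well above background and a band for the lowest signals marked well above background on the arrays (6.94 to 8.90). The other 9 probes lie above the band on every array, *Zfpm2* crosses it, and *Nr5a2*, *Wt1*, and *Lhx9* lie below it, while heights of different probes are not comparable.

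The close relatives of the 10 genes were counted next (*Zfpm1*, *Nr2f1*, *Nr2f6*, *Gata1*, *Gata2*, *Gata3*, *Gata5*, and *Lhx2*). Of their 5 tested probes, 0 rose and 1 fell with siRNA1, where 27% of all tested probes passed (15.2% lower), and 0 passed with siRNA2, where 18.4% did. The median log2 difference was -0.12 with siRNA1 and 0.17 with siRNA2. The probe that fell was that of *Lhx2*, a relative of *Lhx9*, at 45.7%, 62.1%, 66.4%, and 71.8% of control with siRNA1 and 105%, 113%, and 119.9% with siRNA2. Its log2 difference was -0.72 with siRNA1 (SE 0.15, adjusted p = 0.00517), 0.17 with siRNA2 (adjusted p = 0.566), and -0.89 between the siRNAs (SE 0.17, adjusted p = 0.00260).

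Of 8 tested probes of genes known to act upstream of *Nr5a1*, 5 rose and 0 fell with siRNA1, and 3 rose and 1 fell with siRNA2, where 27% and 18.4% of all tested probes passed (11.8% and 7.7% higher). With each siRNA, 3 of the probes that rose are those of *Cited2* alone. The median log2 difference was 0.39 with siRNA1 and 0.14 with siRNA2. All 3 probes of *Cited2*, which codes for a cofactor that acts with WT1 on *Nr5a1* in the adrenal and gonad, rose with both siRNAs. The log2 difference of the brightest was 0.93 with siRNA1 (SE 0.12, adjusted p = 0.000192) and 1.06 with siRNA2 (SE 0.13, adjusted p = 0.000208), and the others gave 0.74 and 0.85 with siRNA1 and 0.88 and 0.91 with siRNA2. *Nr5a1* itself, as given above, did not pass.

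*Usf2*, which codes for an E-box factor that acts on the *Nr5a1* promoter, moved in opposite directions with the siRNAs. It stood at 123%, 146%, 139%, and 138% with siRNA1 and at 52.6%, 64.9%, and 58.3% with siRNA2, against 91.2% to 108% in the control arrays. The siRNA1 arrays lay above and the siRNA2 arrays below the control arrays, by 0.45 (SE 0.10, adjusted p = 0.00539) and -0.78 (SE 0.10, adjusted p = 0.000416). In either direction, groups did not overlap at 29.1% of all tested probes with siRNA1 and at 28.1% with siRNA2. *Sp1*, a general promoter factor, rose with siRNA1 by 0.33 (adjusted p = 0.0290) and gave 0.04 with siRNA2 (adjusted p = 0.873). This call was lost without control 1, control 3, control 4, siRNA1 1, siRNA1 2, or siRNA1 3, with values of 0.27 to 0.33.

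Coregulators of the receptors rose at 6 and fell at 0 of 22 tested probes with siRNA1, and rose at 1 and fell at 0 with siRNA2. These are 27.3% and 4.55% of the probes, beside 27% and 18.4% of all tested probes. The median log2 difference was 0.26 with siRNA1 and 0.18 with siRNA2, beside -0.05 and -0.01 over all tested probes. *Hipk3*, a kinase that binds NR5A1, had the largest difference in this list. It was measured by dim probes, with a processed signal of 33.4 to 167 at the brighter and 6.73 to 34.1 at the other. The dimmer was not well above background on control 1. At the brighter probe, *Hipk3* stood at 297%, 317%, 299.8%, and 283% of control with siRNA1 and at 239%, 228%, and 205% with siRNA2. Its brighter probe rose by 1.58 (SE 0.08, adjusted p = 5.8e-07) and 1.16 (SE 0.09, adjusted p = 1.1e-05), and the other gave 1.09 (adjusted p = 0.00668) and 0.78 (adjusted p = 0.0626, with the same value and a call without siRNA1 3 or siRNA1 4). Across 23 alternatives, the brighter *Hipk3* probe gave 0.66 to 1.62 with siRNA1 and 0.45 to 1.22 with siRNA2, and passed in each. Among coactivators, the 2 probes of *Ncoa3* rose with siRNA1 by 0.58 (adjusted p = 0.00319) and 0.56 (adjusted p = 0.00403). *Ep300* rose by 0.37 (adjusted p = 0.0435), a call that was lost without any one of control 1, control 4, siRNA1 2, siRNA1 3, siRNA1 4, siRNA2 1, siRNA2 2, or siRNA2 3 (0.26 to 0.38). *Nrip1*, a corepressor of nuclear receptors, rose by 0.59 with siRNA1 (adjusted p = 0.00129). *Ctnnb1*, a partner of NR5A1, and *Pias1*, which adds SUMO to such factors, passed between the siRNAs alone, by 0.46 (adjusted p = 0.0206, with 0.35 without siRNA2 3 and 0.39 without siRNA1 3, where the call was lost) and by -0.41 (adjusted p = 0.0101, with -0.36 without siRNA2 2, where the call was lost).

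The known target genes of these factors were counted last. Of their 25 tested probes, 1 rose and 7 fell with siRNA1, 1 rose and 5 fell with siRNA2, and 2 were higher and 7 lower with siRNA1 than with siRNA2. These are 32%, 24%, and 36% of the probes, beside 27%, 18.4%, and 23.5% of all tested probes. The siRNA target *Mamld1* is in this list and among those that fell with each siRNA. The median log2 difference was -0.20 with siRNA1 and 0.02 with siRNA2. *Cyp17a1*, which codes for the enzyme that forms androgens from pregnenolone and progesterone, fell to 48.9%, 56.4%, 53.3%, and 52.5% with siRNA1 (log2 difference -0.92, SE 0.12, adjusted p = 0.000216) and to 66.6%, 68.9%, and 81.0% with siRNA2 (-0.48, SE 0.13, adjusted p = 0.0237). All 7 siRNA arrays lay below the control arrays. In either direction, groups did not overlap at 29.1% of all tested probes with siRNA1 and at 28.1% with siRNA2. The siRNA2 call for *Cyp17a1* was lost without control 3, control 4, siRNA2 1, or siRNA2 2 (-0.45 to -0.40). *Fdx1*, the electron donor of mitochondrial P450 enzymes, fell at its brighter probe by 0.38 (adjusted p = 0.00878) and 0.49 (adjusted p = 0.00465) on the log2 scale. Its other probe gave -0.28 (adjusted p = 0.0512, with a call at -0.34 without siRNA1 4 and -0.33 without control 1) and -0.40 (adjusted p = 0.0189), the latter lost without control 3, siRNA2 1, or siRNA2 2 (-0.40 to -0.36). *Vnn1*, a target of NR5A1 in the fetal gonad, fell by 0.43 (adjusted p = 0.0111) with siRNA1 and by 1.06 (adjusted p = 0.000105) with siRNA2. Its probe was dim, with a processed signal of 21.7 to 57.7. Across 23 alternatives the differences were -0.50 to -0.13 with siRNA1 and -1.20 to -0.31 with siRNA2, and they passed in each.

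Other target genes passed with one siRNA or between them, and *Star* passed in no comparison. *Lhcgr*, the receptor for luteinizing hormone, stood at 76.7%, 60.6%, 70.9%, and 53.2% with siRNA1 and at 126%, 112%, and 98.5% with siRNA2. It fell with siRNA1 by 0.63 (SE 0.12, adjusted p = 0.00285) on the log2 scale, gave 0.16 with siRNA2 (adjusted p = 0.471), and differed between the siRNAs by -0.79 (adjusted p = 0.00121). *Amhr2*, the receptor for anti-Müllerian hormone, fell with siRNA1 by 0.42 (adjusted p = 0.0155) and gave 0.33 with siRNA2 (adjusted p = 0.0739, 0.0180 with the slide as a block, and 0.0480 without siRNA1 4). *Scarb1*, which takes up cholesterol, gave -0.58 with siRNA1 (adjusted p = 0.0191, with -0.56 to -0.48 and no call without control 3, control 4, or siRNA1 3) and -0.45 with siRNA2 (adjusted p = 0.0976, 0.00652 with the slide as a block, and 0.0351 to 0.0371 without control 2 or siRNA2 3). *Prlr*, the prolactin receptor, rose with siRNA1 by 0.79 (adjusted p = 3.4e-05) and gave 0.07 with siRNA2, and *Cyp19a1*, the aromatase, rose with siRNA2 by 0.60 (adjusted p = 0.00292) and gave 0.27 with siRNA1 (adjusted p = 0.0746, and 0.0412 at a value of 0.33 without siRNA1 1). The *Cyp19a1* probe was dim, with a processed signal of 25.2 to 54.5. Its siRNA2 difference was 0.16 to 0.64 across 23 alternatives and passed in each. *Star*, which brings cholesterol into mitochondria, gave 0.06 (adjusted p = 0.83) and 0.16 (adjusted p = 0.619). *Cyp11a1*, the side-chain cleavage enzyme, did not pass against control at either probe (-0.16 and -0.30 with siRNA1, 0.28 and 0.18 with siRNA2), and differed between the siRNAs by -0.43 (adjusted p = 0.0371) and -0.48 (adjusted p = 0.0252). The first of these calls was lost without any one siRNA array other than siRNA1 4 (-0.50 to -0.35), and the second without siRNA1 1, siRNA1 3, or siRNA2 3 (-0.47 to -0.35).

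**Figure D5:**
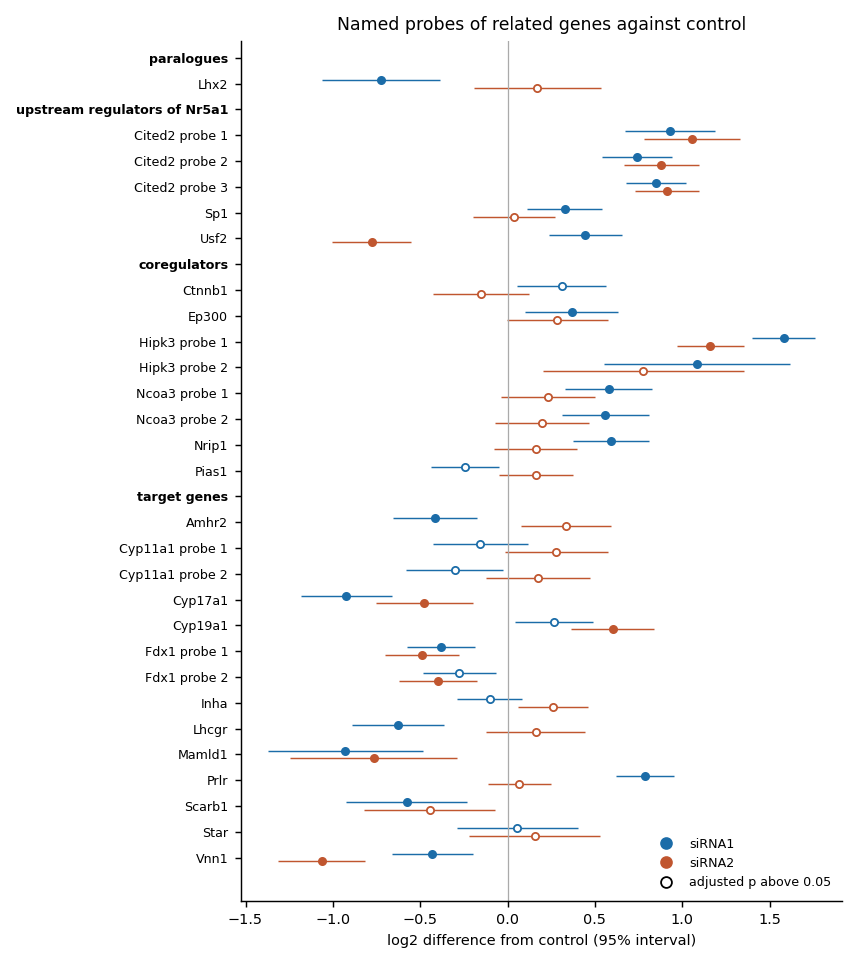
Log2 difference from control (horizontal axis) with its 95% interval for the named probes of relatives, upstream regulators of *Nr5a1*, coregulators, and target genes, for siRNA1 (blue) and siRNA2 (orange), with open circles for an adjusted p above 0.05. The *Cited2* and first *Hipk3* probes lie to the right with both siRNAs, *Usf2* lies on opposite sides, and *Cyp17a1* lies to the left at -0.92 and -0.48.

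Set beside the promoter letters, 6 of the 14 target genes with a promoter in the table held AGGTCA (*Akr1b7*, *Amhr2*, *Cyp11a1*, *Cyp19a1*, *Inha*, and *Lhcgr*) before at least 1 of 19 starts. Of these 6, *Amhr2* and *Lhcgr* fell with siRNA1, *Cyp19a1* rose with siRNA2, and *Inha*, a subunit of inhibin, passed between the siRNAs alone (-0.36, adjusted p = 0.0142, with -0.30 and no call without siRNA2 3). *Akr1b7*, an aldose reductase of the adrenal and gonad, gave -0.25 with siRNA1 (adjusted p = 0.0615) and 0.02 with siRNA2 (adjusted p = 0.936). *Nr0b1*, with the same letters, rose with siRNA1. *Cyp11a1* passed between the siRNAs alone. Against control, the genes with these letters that passed did not move in one direction. Between the siRNAs, *Lhcgr* (-0.79), *Amhr2* (-0.75), *Cyp11a1* (-0.48 and -0.43), *Inha*, and *Cyp19a1* (-0.34) were lower with siRNA1, and *Nr0b1* (0.76) was higher. Of all tested probes, 11.8% passed lower and 11.7% higher in that comparison. Leaving out single arrays ended some of these calls. *Cited2* and *Gata5* held CACGTG, as did *Nr0b2*. Whether the letters bear on these differences was not tested.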

How the data were processed

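RNA of 11 samples in 3 groups was hybridized to 1-color Agilent arrays. Per the file headers, the deposited signal intensities come from Feature Extraction (version 9.5.1.1), with background and spatial trend subtracted on each array and nothing done to align the arrays. A deposited table of group averages over probes selected by the authors' t-test was not used. Signals were converted to log2, the 75th percentile of the non-control spots was subtracted, outlier-marked spots were left out, and spots of a probe were averaged. Probes were named through RefSeq, and those well above background on all arrays of a group were tested. limma (version 3.58.1, R version 4.3.3) fitted 11 arrays, with Benjamini-Hochberg adjustment and a threshold of 0.05, and was tested on simulated data. The number of arrays limits the precision. All probes of the 10 genes are given, the brightest first, and of the related lists those that passed in any comparison, with *Cyp17a1*, *Star*, *Cyp11a1*, and *Mamld1* in any case. The genes and lists were chosen with earlier results of these data known. One gene of the list of upstream regulators is not reported here and was left out of its counts. The alternatives were normexp correction (offset 50, on median spot signals, also with extreme backgrounds replaced), quantile and median scaling, other filters, outlier-marked spots kept, slide and replicate blocks, separate fits, the methods' t-test, trend and robust options, a 2-fold threshold, and leaving out each array. The array was annotated on an older genome build than the promoters, so no probe positions are given.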

Additional observations from a re-analysis of the deposited data

Results flagged for a closer look

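Of 74 groups of 4 arrays examined over 37 probes, 5 held an array far from the other 3, where chance gives about 1 in 20 groups. They were siRNA1 1 for the dimmer *Gata4* probe at 77.3% of control, siRNA1 4 for *Scarb1* at 77.7%, siRNA1 2 for *Mamld1* at 77.0%, control 2 for *Inha* at 91.4%, and control 1 for the dimmer *Hipk3* probe at 74.2%. These fall on 5 different arrays.

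The difference between siRNA1 and siRNA2 itself passed the test at the probes given next, as it did at 23.5% of all tested probes. The probes of related genes had been named because they passed in one of the comparisons, this one included, so their number is set by that choice. Log2 levels were higher with siRNA1 than with siRNA2 for *Usf2* (1.22), *Nr0b1* (0.76), *Prlr* (0.72), *Vnn1* (0.63), *Ctnnb1* (0.46), *Nrip1* (0.43), and the brighter *Hipk3* probe (0.42). They were lower for *Lhx2* (-0.89), *Lhcgr* (-0.79), *Amhr2* (-0.75), *Cyp11a1* (-0.48 and -0.43), *Cyp17a1* (-0.45), *Pias1* (-0.41), *Inha* (-0.36), and *Cyp19a1* (-0.34). *Usf2* passed against control in opposite directions, and *Vnn1*, *Cyp17a1*, and *Hipk3* in the same direction with both siRNAs. Leaving out any single array other than siRNA1 4 ended the call for *Cyp19a1* (-0.37 to -0.27), and leaving out siRNA1 1, siRNA1 3, siRNA2 2, or siRNA2 3 that for *Cyp17a1* (-0.48 to -0.36).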

How the results depend on the processing

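The siRNA1 increase of *Nr0b1* and both increases of the brightest *Gata6* probe kept their direction and passed in all 23 alternatives. So did the siRNA1 increase of *Nr0b1* over siRNA2 in 22 (separate fits give no value between the siRNAs). The 2-fold threshold is not counted among these 23 or 22. Of the 10 genes' 9 probes, 2, 1, and 1 passed (siRNA1, siRNA2, and siRNA1 against siRNA2), and 1, 0, and 0 did with at least a 2-fold change. With the slide as a block, 3, 3, and 3 of the 9 passed, beside 35.8%, 25.5%, and 32.1% of all tested probes. The replicate numbers were not taken as pairs in the main fit, and the correlations do not settle whether they are pairs. Deviations of same-numbered arrays correlated at -0.18 to 0.53 over 10 pairs, not all of them above 0.1. Their median was 0.30, and that over 30 pairs of other numbers was -0.10. Arrays of one slide had a median of 0.30 (13 pairs) against -0.12 (27 pairs). Some same-numbered arrays also share a slide, so number and slide cannot be told apart. With the replicate block, 3, 2, and 1 of the 9 passed (*Gata6* probe 2 at 0.42, adjusted p = 0.0045, and 0.34, adjusted p = 0.0237), beside 34.6%, 24.1%, and 30.9% of all tested probes, and *Nr0b2* gave -0.041 between the siRNAs. Leaving out single arrays gave 2 to 3, 1 to 2 (2 without siRNA2 3), and 1 to 1 of the 9 probes. Over all probes, leaving out single arrays gave 4974 to 6671, 2976 to 4412 (2976 without siRNA2 2), and 4235 to 5647 in place of 6553, 4472, and 5709, the 2-fold threshold 726, 545, and 814, and the methods' t-test 2854 with siRNA2.

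Directions turned for differences that had not passed. With the slide as a block these were *Star* with siRNA1 (-0.047), *Nr5a1* with siRNA2 (-0.055), and *Gata6* probe 2 between the siRNAs (-0.050, and -0.00956 with quantile normalization). Without single arrays, differences with siRNA1 ranged from -0.18 to 0.022 for *Gata4* probe 2, -0.14 to 0.011 for *Gata4* probe 1, -0.23 to 0.14 for *Gata6* probe 3, -0.18 to 0.0078 for *Nr5a1*, -0.014 to 0.082 for *Nr2f2*, and -0.041 to 0.18 for *Star*. With siRNA2 they ranged from -0.12 to 0.11 for *Nr5a1* and -0.030 to 0.11 for *Sp1*, and between the siRNAs from -0.14 to 0.10 for *Nr0b2*, -0.10 to 0.16 for *Gata6* probe 2, -0.20 to 0.015 for *Nr5a1*, and -0.22 to 0.033 for *Scarb1*. The cause was not tested. Without the filter on dim probes, the median difference over all probes with siRNA1 was -0.13 in place of -0.05. The split of calls by direction over all probes also depended on the scaling. Of the siRNA1 calls, 43.6% were higher in the main fit, and 50.4% to 51.1% with normexp, quantile, or median scaling. With siRNA2 the share was 41.7%, and 40.3% to 47.3% with these alternatives. Normexp took *Mamld1* to -0.14 and -0.11, where neither passed (adjusted p = 0.0767 and 0.243). *Zfpm2* lies at the limit of the arrays, and *Nr5a2*, *Wt1*, and *Lhx9* lie below it.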
